A study of Mus musculus with 53 samples.

Results

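The experiment described here asked what loss of neuronatin (Nnat) changes in the paraventricular nucleus of the hypothalamus (PVN) when mutant and control mice both eat a high-fat diet (HFD) and weigh about the same. Its members are 9 of the 53 libraries of the series, namely 3 libraries from Nnat+/-p males and 6 from wild-type males, all fed a diet with 45% fat and all taken by the labels from the PVN. The libraries were chosen by their labels for tissue, diet and genotype, and the rule uses no measured value. One further library of the same table, replicate 32, was left out because its label names the arcuate nucleus (ARC) while its counts sit in the PVN table. Nnat is imprinted and is read from the paternal copy only, so a mouse that inherits a null copy from its father (+/-p) makes almost no Nnat although its maternal copy is intact.

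All 9 mice were C57BL/6 males aged 13 to 14 weeks, and each gave 1 library of total RNA from laser-captured tissue. According to the study's methods, wild-type mothers were crossed with heterozygous fathers, so both genotypes were littermates. The null allele holds a lacZ cassette, and the last exons of Nnat-202 are absent from it. The allele is a germline one, so the comparison is not of loss in PVN neurons alone. The labelled body weights were 43.1, 43.9 and 38.2 g in Nnat+/-p mice, and ran from 37.4 to 42.9 g in wild type. The means were 41.7 ± 3.09 g (SD, n = 3) and 41.0 ± 1.92 g (SD, n = 6), and an exact two-sided permutation test over all 84 splits gave p = 0.69. The groups therefore overlapped in weight, but 2 of the labels conflict: the weight given to wild-type replicate 24 and that given to Nnat+/-p replicate 30 appear with the other genotype among the ARC libraries.

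Nnat encodes a small membrane proteolipid of the endoplasmic reticulum that is abundant in neurons and endocrine cells and has been linked to calcium handling and to the maturation of prohormones. The PVN integrates signals on energy balance: its neurons make vasopressin, oxytocin, corticotropin-releasing hormone and thyrotropin-releasing hormone, and its melanocortin-4 receptor neurons restrain feeding. Sim1 and Otp are transcription factors that specify these neurons.

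In GRCm38, Nnat (ENSMUSG00000067786) occupies chromosome 2, positions 157560078 to 157562522, plus strand, inside the span of Blcap, which runs on the other strand from 157556362 to 157571274. In its 3-exon transcript Nnat-202, exons 2 and 3 hold 1062 of 1213 bases (87.6%), so most reads of a normal transcript come from the part that the null allele lacks. The 250 bases before the annotated start, from 157559828 to 157560077, are shown because this is the promoter of the only gene that passed the test. They are from RefSeq (GRCm38.p6), 5′ to 3′ on the plus strand, with each CG in capitals, since CG methylation carries the imprint of such genes; methylation was not measured here.

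Nnat promoter: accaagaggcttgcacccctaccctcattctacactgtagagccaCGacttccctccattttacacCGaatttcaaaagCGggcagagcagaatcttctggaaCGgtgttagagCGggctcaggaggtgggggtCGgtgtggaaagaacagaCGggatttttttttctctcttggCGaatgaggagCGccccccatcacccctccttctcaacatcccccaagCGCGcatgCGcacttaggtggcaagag

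The window holds 12 CG pairs, and 33.5% of the 32851 RefSeq promoter windows of the same length hold as many or more.

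The libraries held 5582716 to 8560199 counts each, and 25% to 35.2% of them fell on the mitochondrial ribosomal RNAs. All values below are CPM, the library-size-normalised read counts of edgeR with TMM factors,, unless they are called log2 fold changes, which are Nnat+/-p minus wild type. The tissue label was checked against markers of the PVN. Avp, which encodes vasopressin, was at 0.937 CPM in wild-type replicate 24 and at 71.8 CPM in wild-type replicate 23, against 267 to 418 CPM in the other 4 wild-type libraries and 179 to 379 CPM in Nnat+/-p. Sim1 was at 16.7 CPM in replicate 24 and between 121 and 185 CPM in the other 8 libraries. Avp was thus near absent and Sim1 low in replicate 24, and Avp was reduced in replicate 23, whatever their label says. All 3 Nnat+/-p libraries carried both genes. Otp was also low in replicate 24 (19.7 CPM), whereas Trh was not (116 CPM, inside the wild-type range of 67.6 to 224 CPM). Sim1 in replicate 23 was at 121 CPM, beside 125 to 161 CPM in Nnat+/-p. Several results that rest on replicates 23 and 24 are therefore given with and without them.

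**Figure D1:**
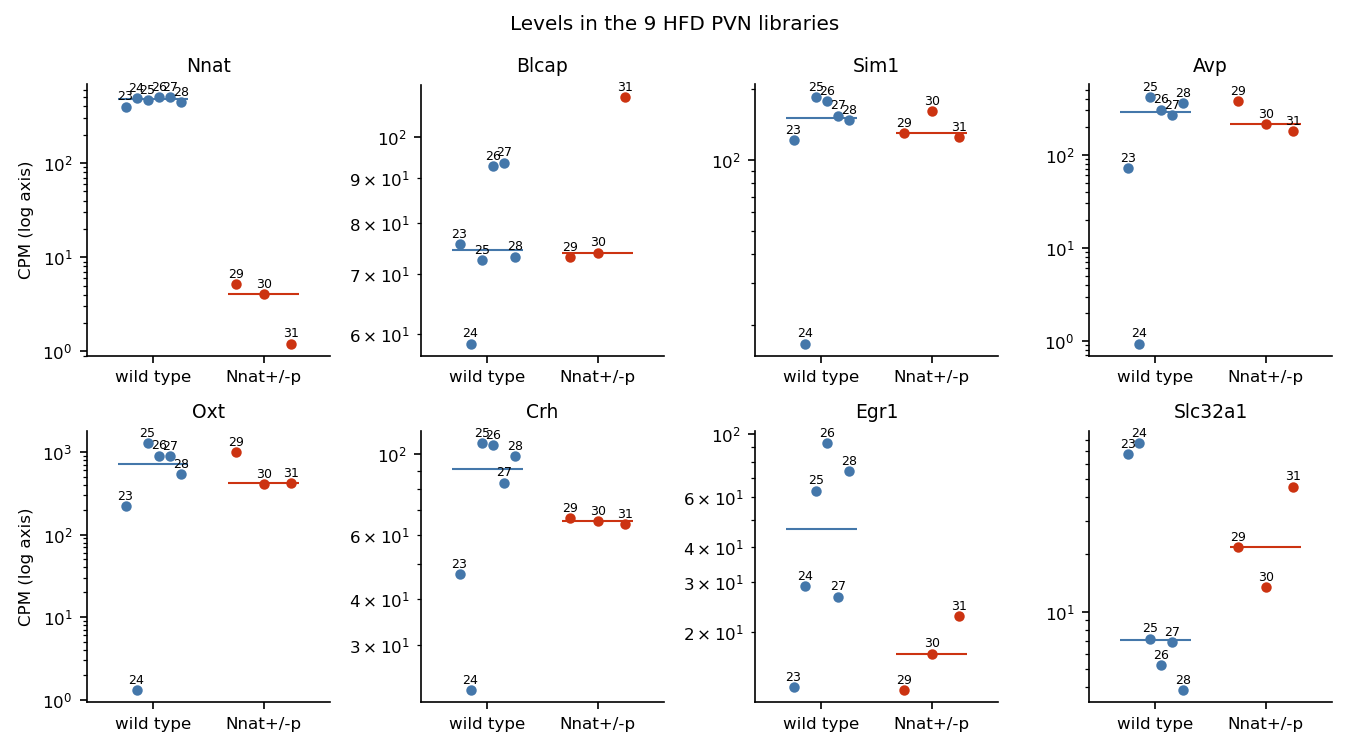
Level of 8 genes in each of the 9 HFD PVN libraries, in CPM on a log axis, with wild type in blue, Nnat+/-p in red, the group median as a bar and the replicate number above each point. Nnat separates the genotypes completely; replicate 24 lies far below the other libraries in Sim1, Avp and Oxt, and replicates 23 and 24 lie above all others in Slc32a1.

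Nnat, the targeted gene, was the only gene of 17576 tested that passed the threshold between the genotypes. It was at 5.16, 4.02 and 1.21 CPM in the Nnat+/-p libraries, from 36, 28 and 9 counts, and at 399, 486, 465, 499, 506 and 447 CPM in wild type. Every Nnat+/-p library lay far below every wild-type library, and the gene matches the genotype label in all 9 libraries. The means were 3.46 ± 2.03 (SD, n = 3) and 467 ± 39.6 CPM (SD, n = 6), so 0.741% of the wild-type level remained. The log2 fold change was -7.08 ± 0.34 (SE), with a 95% interval from -7.77 to -6.38 and an adjusted p of 1.57e-13 in the quasi-likelihood test of edgeR, Benjamini-Hochberg adjusted. An exact two-sided permutation test on the CPM, which doubles the 1-sided p, gave p = 0.0238. That is the smallest value this form of the test can give for 3 libraries against 6. Whether the remaining counts came from the maternal copy or from the part of the null allele that is left cannot be read from counts per gene.

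Blcap, the gene that surrounds Nnat on the opposite strand and is itself imprinted in brain, was at 73.2, 74.1 and 111 CPM in Nnat+/-p. In wild type it ran from 58.5 to 93.6 CPM, with a median of 74.6 CPM. The groups overlapped, with 1 Nnat+/-p library above all of wild type, and the log2 fold change was 0.15 ± 0.25 (SE; 95% interval -0.35 to 0.64; adjusted p = 1 in the quasi-likelihood test of edgeR, Benjamini-Hochberg adjusted). The kit marks strand, but whether counting used it is not given in the sources used here, so a part of the Blcap counts could stem from Nnat. Within 5 Mb of Nnat, 120 other genes were tested, of which 0 were called by edgeR and 0 reached an unadjusted p under 0.05. Among them Slc32a1, 1.05 Mb beyond the end of Nnat, was called when wild-type replicates 23 and 24 were left out, and is described with the genes of inhibitory neurons.

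At the threshold used throughout, an adjusted p under 0.25, edgeR called 1 gene lower and 0 higher, 0.00569% of the genes tested. At an unadjusted p under 0.05 there were 174 genes (0.99%), of which 126 were lower in Nnat+/-p (0.717%) and 48 higher (0.273%). That is fewer than the share of 0.05 that such a cut-off lets through on average when no gene differs, so the 174 are no excess. DESeq2 called 1 gene and put 227 under that unadjusted p, and limma voom with sample quality weights called 1 and put 615 there; in each of these fits the called gene was Nnat. In 285 genes (1.62%) the libraries of the 2 genotypes did not overlap. The median log2 fold change over all tested genes was -0.05, with 7378 positive and 10140 negative.

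**Figure D2:**
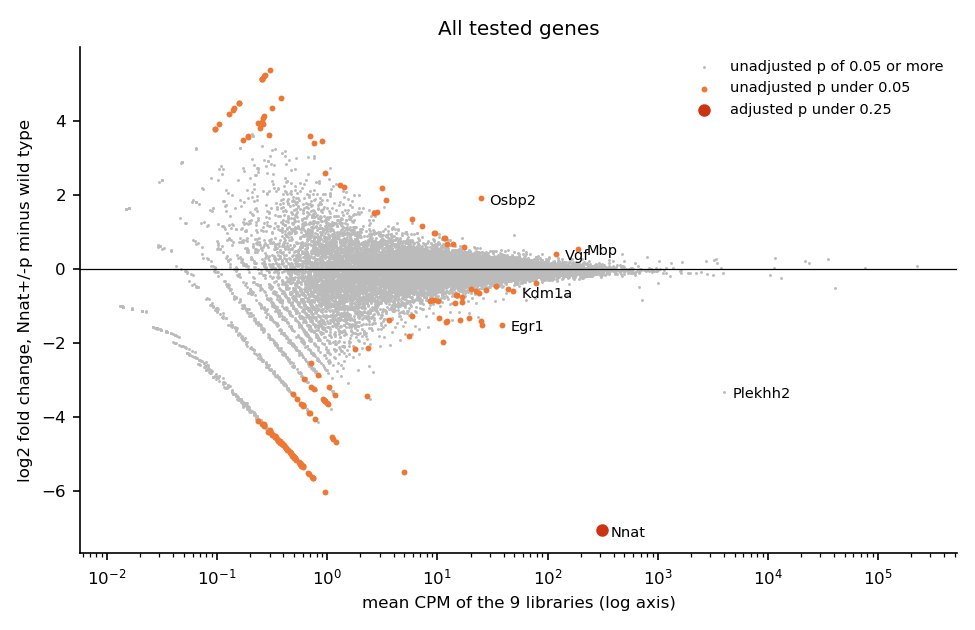
Log2 fold change (Nnat+/-p minus wild type) of all 17576 tested genes against their mean level in the 9 libraries, in CPM on a log axis. Nnat stands alone at -7.08; the genes with an unadjusted p under 0.05 lie mostly at low levels, where a few counts make a large fold change.

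How large a difference these 9 libraries could have missed depended on the level of the gene. For 7126 of the 17576 genes (40.5%) the 95% interval of the log2 fold change lay within 2-fold in either direction. The share was 98.4% of the 1950 genes above 64 CPM and 91.6% of the 4751 genes between 16 and 64 CPM, but 17.2% of the 4982 genes between 4 and 16 CPM and 0 below that. For most genes above 16 CPM a change above 2-fold is thus outside the interval, though not for the PVN hormones Oxt, Avp, Crh and Sst or for Sim1. For genes below 4 CPM the intervals leave room for a change above 2-fold in at least 1 direction.

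The hormones of the PVN came first among the lists that were followed, since Nnat has been linked to prohormone maturation. For the pancreas, the study proposes that Nnat loss has no major effect on such processing, from few mice. That rests on peptides measured by mass spectrometry, whereas the values here are RNA levels, which do not measure processing. Oxt, which encodes oxytocin, was at 988, 408 and 416 CPM in Nnat+/-p. In wild type it ran from 1.31 CPM in replicate 24 to 1270 CPM, with a median of 721 CPM. The Nnat+/-p libraries lay inside this range, and the log2 fold change of -0.09 had a 95% interval from -1.78 to 1.61. Replicate 23 held 223 CPM, and apart from replicates 23 and 24 wild type ran from 544 to 1270 CPM. Nnat+/-p replicates 30 and 31 lay below that narrower range, and replicate 29 lay inside it. Replicates 23 and 24 were the lowest of all 9 libraries in both Oxt and Avp, and for Avp the interval ran from -1.43 to 1.67 around 0.12. Crh, the releasing hormone of the stress axis, was close to constant in Nnat+/-p at 66.7, 65.3 and 64.1 CPM. In wild type Crh was at 46.9 and 22.5 CPM in replicates 23 and 24 and between 83.5 and 107 CPM in the other 4. The Nnat+/-p libraries thus fell between these 2 sets of wild-type libraries, and the log2 fold change moved from -0.25 to -0.58 without replicates 23 and 24 (unadjusted p = 0.632 and 0.251, edgeR's quasi-likelihood test). Trh, the releasing hormone of the thyroid axis, was at 142, 127 and 130 CPM in Nnat+/-p and had a wild-type median of 132 CPM (95% interval -0.85 to 0.73). Of the 12 genes of PVN identity and hormones, 0 were called by edgeR and 0 reached an unadjusted p under 0.05; 6 had a positive and 6 a negative log2 fold change, with a median of -0.00 that became -0.27 without replicates 23 and 24, where 10 of 12 were negative.

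Sst, which encodes the inhibitory peptide somatostatin, had the highest log2 fold change of these 12 genes without passing the test. It was at 103, 71.1 and 41.3 CPM in Nnat+/-p. In wild type Sst ran from 22.1 to 58.6 CPM with a median of 31.9 CPM. Nnat+/-p replicates 29 and 30 lay above all of wild type and replicate 31 lay inside its range. The log2 fold change was 0.92 ± 0.47 (SE; 95% interval -0.04 to 1.88; unadjusted p = 0.0543 and adjusted p = 1 in the quasi-likelihood test of edgeR, Benjamini-Hochberg adjusted), and without replicates 23 and 24 it was 0.97 (unadjusted p = 0.0556, same test).

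The granins and the enzymes that cut prohormones were the best measured of the neuroendocrine lists, with the interval within 2-fold for 11 of 13 genes, a median log2 fold change of -0.04, and 0 calls by edgeR. Vgf, a granin-like precursor of peptides that act on energy balance, was the 1 member with an unadjusted p under 0.05. It was at 163, 158 and 108 CPM in Nnat+/-p. In wild type Vgf ran from 89.1 to 134 CPM with a median of 105 CPM. Replicates 29 and 30 again lay above all of wild type and replicate 31 did not, and the log2 fold change was 0.40 ± 0.19 (SE; 95% interval 0.00 to 0.79; unadjusted p = 0.0453 and adjusted p = 1 in the quasi-likelihood test of edgeR, Benjamini-Hochberg adjusted). On chow Vgf was called between obese Nnat+/-p and wild type, with a log2 fold change of 1.27 and an adjusted p of 0.00974 by the same test. Pcsk1, the prohormone convertase of secretory granules, was at 120, 141 and 95.7 CPM against a wild-type median of 98.8 CPM, with a 95% interval from -0.37 to 1.01. Cpe, the carboxypeptidase that trims the peptides after cutting, was at 644, 498 and 572 CPM against a wild-type median of 652 CPM (95% interval -0.59 to 0.23).

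Among the other neuropeptides 13 of 15 were tested, with a median log2 fold change of -0.37 that was -0.02 without replicate 24, and edgeR called 0 of them. Gal, which encodes galanin, was at 10, 9.91 and 8.99 CPM in Nnat+/-p and was the 1 member with an unadjusted p under 0.05 in edgeR's test. Its wild-type level was 91.1 CPM in replicate 24 and between 4.57 and 13.7 CPM in the other 5 libraries. The fold change therefore rested on replicate 24: the log2 fold change was -1.32 with it and -0.18 without it (unadjusted p = 0.0412 and 0.697, edgeR's quasi-likelihood test). The same library also held the highest wild-type level of Cartpt (71.6 CPM), Nts (18.7 CPM), Cck (17.8 CPM) and Grp (18.7 CPM), peptide genes that are strongly expressed in other parts of the hypothalamus or forebrain.

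The receptors through which appetite signals act gave 0 calls among 21 tested genes, with 10 positive and 11 negative log2 fold changes. Mc4r, the melanocortin-4 receptor, was at 4.3, 14.4 and 1.88 CPM in Nnat+/-p, and ran from 0.187 to 14.8 CPM in wild type. Glp1r, the receptor of glucagon-like peptide 1, was at 13.7, 14.6 and 9.93 CPM in Nnat+/-p and had a wild-type median of 10.6 CPM (log2 fold change 0.38; 95% interval -0.48 to 1.24). Ntsr1, the main receptor of neurotensin, was at 1.86, 4.02 and 3.22 CPM against a wild-type median of 3.84 CPM (log2 fold change -0.59; 95% interval -2.19 to 1.02). All 3 overlapped between the genotypes, and the interval of each reached past 2-fold in at least 1 direction.

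The study places Nnat in a network of imprinted genes. A general list of 38 imprinted genes was followed here, not the members of that network as such, and 36 were tested. Besides Nnat, edgeR called 0 of them and 0 had an unadjusted p under 0.05, and the interval lay within 2-fold for 27 of the 36. Peg3, a paternally expressed zinc finger gene and one of the most abundant here, was at 1720, 1770 and 1810 CPM in Nnat+/-p against a wild-type median of 2000 CPM (95% interval -0.51 to 0.27). Dlk1, a Notch-like ligand expressed in hypothalamic neurons, was at 331, 255 and 230 CPM against a median of 318 CPM (95% interval -0.62 to 0.39). Ndn, which encodes necdin and is lost in Prader-Willi syndrome, was at 695, 523 and 514 CPM against a median of 556 CPM (95% interval -0.44 to 0.48). The summed level of the 35 tested members other than Nnat was 8493 to 8889 CPM in Nnat+/-p and 8663 to 9399 CPM in wild type, so the genotypes overlapped, and the median log2 fold change of these genes was -0.07. They ran from -1.09 for Mkrn3, which had no more than 2.06 CPM in any library, to 0.30 for Mirg.

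Nnat has been likened to phospholamban and sarcolipin, small peptides that restrain the calcium pump of the endoplasmic reticulum (SERCA). The study's own sequence searches found no homology to either of them, and it predicts an inverse membrane orientation for Nnat. Atp2a2, the SERCA pump of neurons, was at 281, 314 and 326 CPM in Nnat+/-p and had a wild-type median of 319 CPM. The 95% interval of its log2 fold change ran from -0.39 to 0.32. Pln was at 0.43 CPM or less in Nnat+/-p and at no more than 3.04 CPM in wild type, and Sln had 0 counts in all 9 libraries. Sec11c, a catalytic subunit of the signal peptidase, was at 65.6, 69.3 and 62 CPM against a wild-type median of 70.5 CPM (95% interval -0.52 to 0.35). The chaperone Hspa5, which rises under stress of the endoplasmic reticulum, was at 511, 453 and 459 CPM against a median of 535 CPM (95% interval -0.56 to 0.38). Of the 19 tested genes of this list edgeR called 0, 0 had an unadjusted p under 0.05, and the interval lay within 2-fold for 16; 16 of 19 log2 fold changes were negative with a median of -0.09, beside -0.05 for all genes.

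Signalling by insulin and leptin (16 tested genes, median log2 fold change -0.14) and hypothalamic inflammation (9 tested of 14, median 0.12) also gave 0 calls by edgeR and 0 genes with an unadjusted p under 0.05. Stat3, the transcription factor downstream of the leptin receptor, was at 42.8, 45.2 and 50.3 CPM in Nnat+/-p, below or within a wild-type range of 47.3 to 72.7 CPM (95% interval -0.85 to 0.05). Ucp2, a mitochondrial carrier, was at 43.7, 30.4 and 48.4 CPM against a median of 44.8 CPM (log2 fold change -0.21; 95% interval -0.70 to 0.28).

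**Figure D3:**
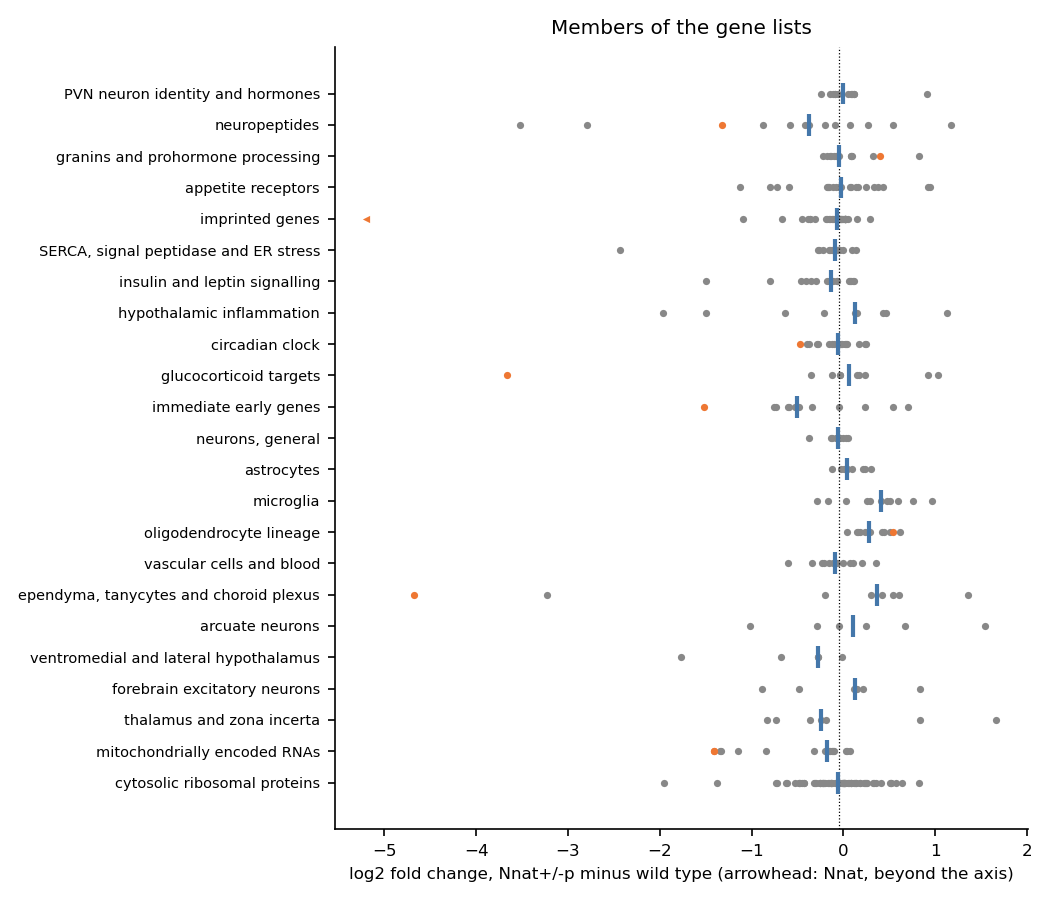
Log2 fold change (Nnat+/-p minus wild type) of each tested member of 23 gene lists, with the list median as a blue bar, members at an unadjusted p under 0.05 in orange, and the median of all tested genes, -0.05, as a dotted line. Apart from Nnat, drawn as an arrowhead at the left edge, no member was called; the immediate early genes have the lowest median, -0.51, and all 12 oligodendrocyte genes lie above 0.

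The immediate early genes, which neurons switch on within minutes of activity, had the lowest median of the 23 lists, -0.51 over 12 tested genes, 9 of them negative. Egr1, a zinc finger transcription factor of this class, had the smallest p of any gene after Nnat. It was at 12.5, 16.8 and 22.8 CPM in Nnat+/-p, from 87, 117 and 170 counts. In wild type Egr1 was at 12.8, 29.1, 63.2, 92.9, 26.7 and 74.1 CPM. The Nnat+/-p libraries were tightly grouped and lay below 5 of the 6 wild-type libraries, while replicate 23 was as low as they were. Replicate 32, which entered no comparison, held 108 CPM of Egr1 when scaled to its own total. The means were 17.4 ± 5.2 (SD, n = 3) and 49.8 ± 31.5 CPM (SD, n = 6), and the log2 fold change was -1.52 ± 0.41 (SE; 95% interval -2.35 to -0.68). Its unadjusted p was 0.00139 and its adjusted p was 1 in the quasi-likelihood test of edgeR, Benjamini-Hochberg adjusted, so it did not pass. Without replicates 23 and 24 the log2 fold change was -1.86 and the adjusted p, by the same test, was 0.173, which does pass; both libraries are among the 3 lowest of wild type for this gene. Over the 20 alternative settings tried, the log2 fold change stayed between -1.86 and -1.24, and the adjusted p ran from 0.0007 to 1 and passed in 2 of them, the other being the fit without a filter on low counts.

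The other immediate early genes did not all follow Egr1. Without replicates 23 and 24 the list median was -0.68, with 8 of 12 log2 fold changes negative. In that fit 2 members, both lower, were under an unadjusted p of 0.05 in edgeR's test. Junb was at 6.59, 10.2 and 13.7 CPM in Nnat+/-p against a wild-type median of 17.7 CPM (unadjusted p = 0.136, edgeR's test). It was at 4.19 and 13.1 CPM in wild-type replicates 23 and 24. The other wild-type libraries, at 14.9 to 25.4 CPM, lay above all of Nnat+/-p. Fos was at 13, 20.2 and 23.6 CPM against a median of 23.5 CPM (unadjusted p = 0.45, edgeR's test). Jun, at 79.2, 93.9 and 60 CPM, and Npas4, at 3.29, 2.87 and 16.1 CPM, had positive log2 fold changes with unadjusted p of 0.386 and 0.305. The time of day and the handling at collection are not given per mouse, and their part in these genes was not tested. Among the circadian clock genes, which also vary with the hour, edgeR called 0 of 16, and Bhlhe40, a repressor within the clock, was the 1 member under an unadjusted p of 0.05: it was at 26.1, 24.3 and 30.1 CPM in Nnat+/-p and ran from 27.7 to 54 CPM in wild type, with 2 of 3 libraries below all of wild type (log2 fold change -0.48 ± 0.23 SE; unadjusted p = 0.0455; adjusted p = 1 in the quasi-likelihood test of edgeR, Benjamini-Hochberg adjusted). Of 10 glucocorticoid targets edgeR likewise called 0, with a median of 0.06. Plin4, a lipid droplet gene, had 1, 1 and 0 counts in Nnat+/-p and 1 to 23 in wild type (unadjusted p = 0.05, edgeR's test). Without replicate 24, 0 members of the clock and glucocorticoid lists were under an unadjusted p of 0.05 in that test. Dbp, whose level swings with the day, was at 23.1, 16.7 and 54.5 CPM in Nnat+/-p and ran from 24.7 to 52.2 CPM in wild type, so the mice within each genotype differed by more than 2-fold.

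Of the other genes with the smallest p that were lower in Nnat+/-p, Kdm1a was the most abundant after Nnat. Kdm1a encodes LSD1, a histone demethylase that removes methyl groups from lysine 4 of histone H3. It was at 36.4, 41.1 and 30.2 CPM in Nnat+/-p. In wild type Kdm1a ran from 50.4 to 69 CPM with a median of 52.7 CPM. The genotypes did not overlap, the means were 35.9 ± 5.45 (SD, n = 3) and 55.0 ± 7.05 CPM (SD, n = 6), and the log2 fold change was -0.61 ± 0.22 (SE; 95% interval -1.06 to -0.17). With an unadjusted p of 0.00947 and an adjusted p of 1 in the quasi-likelihood test of edgeR, Benjamini-Hochberg adjusted it was not called, nor was it under any of the 20 alternative settings. Its log2 fold change stayed between -0.75 and -0.50 in them.

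The remaining genes of the 10 with the smallest p in this direction were weakly expressed: 6 of the 10 had 0 counts in all 3 Nnat+/-p libraries. Tbx20, a T-box transcription factor, had 3, 7, 11, 23, 1 and 12 counts in wild type and was at least 3.49-fold lower in Nnat+/-p, taking the wild-type median against a floor of 3 counts per library. Adgrf3, an orphan adhesion receptor, had 10, 11, 2, 6, 14 and 2 counts and was at least 2.31-fold lower by the same floor. For Nkx1-1, Ltb4r1, Cacna1f and Gm2027 the bounds were 2.51, 1.74, 1.49 and 1.98. Each of these also had 0 counts in wild-type replicate 27, so the genotypes overlapped and the bounds hold for the wild-type median only. Gpr50, an orphan receptor of the melatonin receptor family, had 221 counts in replicate 24 and no more than 15 in any other library. None of these was called.

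The genes with the smallest p that were higher in Nnat+/-p were weaker still. Of these 10, 7 had 0 counts in all 6 wild-type libraries, and in 8 a single library held at least 50% of the gene's counts. Lgals7 and Gm17740, for example, each had 16 counts in replicate 30 and 0 in the other 8, and 9330162B11Rik had 17 in replicate 31 alone. Serpinb8, with the smallest p of them, had 18 counts in replicate 31 and 2 in replicate 30, and Muc15 had 16 and 2. Of the 7 without wild-type counts, only Gm31718 (at least 1.38-fold higher) and 1700017D01Rik (at least 1.29-fold higher) had a Nnat+/-p median above the floor of 3 counts per library in wild type.

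En2 and Gm4869 were the 2 of this set with counts on both sides in several mice, and Gm14114 had counts in every Nnat+/-p library. En2, the homeobox gene engrailed 2, was at 12.6, 6.03 and 1.21 CPM in Nnat+/-p, from 88, 42 and 9 counts. In wild type En2 was at 0.381, 4.87, 1.07, 1.55, 0.866 and 0 CPM. Replicates 29 and 30 lay above all of wild type and replicate 31 inside its range, and the log2 fold change was 2.19 ± 0.88 (SE; 95% interval 0.40 to 3.98; unadjusted p = 0.0141 and adjusted p = 1 in the quasi-likelihood test of edgeR, Benjamini-Hochberg adjusted). Leaving out 1 library at a time gave log2 fold changes from 1.32 without replicate 29 to 3.01 without replicate 24 (unadjusted p = 0.172 and 0.00123, edgeR's quasi-likelihood test). On chow, in other mice, En2 ran from 4.04 to 28 CPM in the 7 Nnat+/-p males and from 0 to 6.03 CPM in the 3 wild-type males. The log2 fold changes there were 2.72 for the obese males and 2.22 for the others, again with none called (adjusted p = 0.546 and 0.822 in the quasi-likelihood test of edgeR, Benjamini-Hochberg adjusted). Counts per gene do not show which part of En2 the reads matched, so a change of the native gene cannot be read from them. Whether sequence inserted with the null allele added to these counts was not tested. Gm14114, an unnamed gene model on chromosome 2 that ends 10.7 Mb before Nnat, had 13, 8 and 2 counts in Nnat+/-p and 1, 0, 0, 0, 0 and 0 in wild type. Gm4869 had 8, 21 and 10 counts in Nnat+/-p against 2, 0, 0, 4, 0 and 0.

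Osbp2 shows how 1 library can carry a fold change; it was picked out after its values were seen. This gene of oxysterol binding was at 4.73, 12.2 and 128 CPM in Nnat+/-p and between 9.34 and 19.3 CPM in wild type. Replicate 31 alone was high, with 954 counts, and the log2 fold change of 1.90 turned to -0.61 without it. In Plekhh2, also picked out after its values were seen, wild-type replicate 28 held 33030 CPM against 18.7 to 586 CPM in the other 5 wild-type libraries and 125.5, 1559 and 21.5 CPM in Nnat+/-p.

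Laser capture takes neighbouring tissue along, so markers of other cells were followed in the same libraries. In bulk tissue, fewer cells of a type and less RNA per cell cannot be told apart. The oligodendrocyte list was the one list in which every tested member, 12 of 12, had a positive log2 fold change, with a median of 0.28 that was 0.54 without replicates 23 and 24. Its summed level was 625 to 753 CPM in Nnat+/-p and 400 to 884 CPM in wild type. Wild-type replicate 23 had the highest sum of all, and the other 5 wild-type libraries, replicate 24 with 607 CPM highest among them, lay below all of Nnat+/-p. Mbp, the myelin basic protein gene, was at 257, 247 and 218 CPM in Nnat+/-p. In wild type Mbp was at 272 CPM in replicate 23 and between 116 and 174 CPM in the other 5. The log2 fold change was 0.54 ± 0.25 (SE; 95% interval 0.02 to 1.05; unadjusted p = 0.038 and adjusted p = 1 in the quasi-likelihood test of edgeR, Benjamini-Hochberg adjusted).

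**Figure D4:**
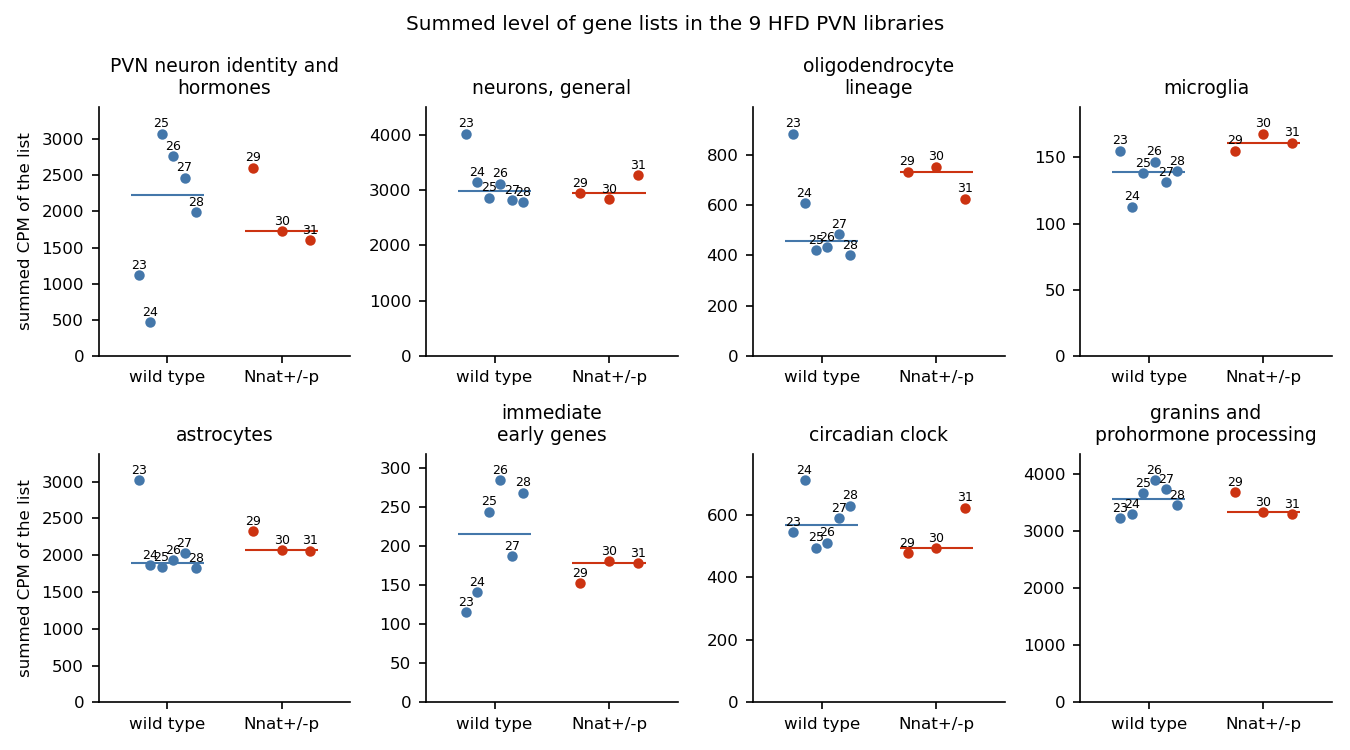
Summed CPM of 8 gene lists in each of the 9 HFD PVN libraries, with wild type in blue, Nnat+/-p in red, the group median as a bar and the replicate number above each point. Wild-type replicates 23 and 24 have the lowest sums of PVN genes and the highest wild-type sums of oligodendrocyte genes.

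The microglial list summed to 155 to 168 CPM in Nnat+/-p and to 113 to 155 CPM in wild type; 9 of 11 log2 fold changes were positive with a median of 0.41, and edgeR called 0 and put 0 under an unadjusted p of 0.05. Csf1r, the receptor on which microglia depend, was at 42.7, 32.3 and 44.6 CPM against 23.3 to 37 CPM in wild type (unadjusted p = 0.0925, edgeR's test). Astrocyte genes summed to 2064 to 2327 CPM in Nnat+/-p, above 5 wild-type libraries at 1827 to 2027 CPM and below replicate 23 at 3021 CPM. Their median log2 fold change was 0.04, and the interval lay within 2-fold for all 10 of them.

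Genes of inhibitory neurons varied widely between libraries of a genotype. The PVN proper holds few such cells, and they lie around it. Slc32a1, the vesicular transporter of GABA, was at 67.6 and 76.8 CPM in wild-type replicates 23 and 24 and between 3.86 and 7.2 CPM in the other 4. In Nnat+/-p it was at 21.9, 13.5 and 45.4 CPM. All 3 Nnat+/-p libraries thus lay between the 2 sets of wild-type libraries, and the log2 fold change was -0.05 with all libraries but 2.23 without replicates 23 and 24 (adjusted p = 0.173 in the quasi-likelihood test of edgeR, Benjamini-Hochberg adjusted). Slc32a1 was picked out after its values were seen, and the libraries left out are the 2 with its highest levels. Gad1, a GABA-synthesising enzyme, was ordered in the same way, at 26.2, 33.3 and 73.4 CPM in Nnat+/-p, 115 and 174 CPM in replicates 23 and 24 and 8.73 to 18.4 CPM in the others. The glutamate transporter Slc17a6, carried by most PVN neurons, was at 162, 178 and 148 CPM against a wild-type median of 180 CPM (95% interval -0.55 to 0.30). Over the list of 10 general neuronal genes, edgeR's test put 0 under an unadjusted p of 0.05 with all libraries. Without replicates 23 and 24 it put 4 there, all higher in Nnat+/-p. How far the tissue cut for each library contributed to the differences in Sst, Mbp, Slc32a1 and Gad1 was not tested.

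The 5 lists of neighbouring tissue and those of vessels and general RNA content complete the check, and edgeR called 0 members of any of them. Arcuate genes summed to 28.3 to 33.5 CPM in Nnat+/-p and 18.5 to 37.3 CPM in wild type. Genes of the ventromedial and lateral hypothalamus summed to 7.88 to 12.1 CPM against 5.72 to 38.8 CPM, and those of ependyma, tanycytes and choroid plexus to 30.7 to 31.7 CPM against 17.6 to 39.7 CPM. Genes of forebrain excitatory neurons summed to 171 to 295 CPM against 178 to 260 CPM, and those of thalamus and zona incerta to 82.5 to 96.8 CPM against 69.3 to 167 CPM. In all 5 the Nnat+/-p libraries overlapped with wild type. Vascular and blood genes summed to 352 to 406 CPM against 218 to 527 CPM, also with overlap. Rax, a tanycyte gene, had 0 counts in Nnat+/-p and 0 to 7 in wild type (unadjusted p = 0.0252, edgeR's test). Ribosomal protein genes had a median log2 fold change of -0.06 over 70 genes and mitochondrially encoded RNAs one of -0.17 over 17, of which the tRNA genes mt-Tv and mt-Tp had an unadjusted p under 0.05 and were highest in wild-type replicates 23 and 28 (58.6 and 76.1 CPM for mt-Tv, against 5.31 to 20.2 CPM in the other 7 libraries).

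The spread between libraries of a genotype was compared too. Gene by gene, the SD of log2 CPM had a median of 0.344 over the 3 Nnat+/-p libraries and of 0.465 over the 6 wild-type libraries, and it was larger in Nnat+/-p for 36.8% of 17576 genes. Without replicate 24 that share was 41%, and without replicates 24 and 28, the 2 libraries with the lowest correlation with the rest (median r of 0.922 and 0.928 across genes, against 0.943 to 0.95), it was 47.5%. These SDs come from unequal numbers of libraries, and the share expected without a difference is then not 50% and moves with that number, so no direction is read from them; no test was run.

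On chow the wild-type males weighed 31.4 to 33.5 g, and Nnat+/-p males were taken as obese (38.8 to 46.5 g) or non-obese (27.4 to 34.3 g). The test of the interaction asks whether the effect of the genotype on HFD differed from that on chow, averaged over both. edgeR called 0 of 17576 genes (0%), with 677 at an unadjusted p under 0.05 (3.85%), while DESeq2 called 15 and limma voom 1. At like weight, between non-obese Nnat+/-p and wild type, edgeR called 2 genes on chow (0.0114%), Nnat and Vwc2l, which had a log2 fold change of 0.27 on HFD (95% interval -0.54 to 1.09). Between obese Nnat+/-p and wild type it called 62 (0.353%). Of the 61 genes other than Nnat that were called between obese Nnat+/-p and wild-type males on chow in this fit, 28 were higher there with a median log2 fold change of 2.20 and 33 lower with a median of -1.35. On HFD the medians of the same genes were 0.04 and 0.05. Only 16 of the 28 and 14 of the 33 had the same sign on HFD, and for 15 and 20 of them the 95% interval on HFD lay within 2-fold. The 2 comparisons share no library, but the genes were chosen for their size on chow. In chow wild-type replicate 15 Avp and Sim1 were near absent (0.182 and 0.546 CPM). Chosen without replicate 15, 35 genes were higher and 18 lower on chow, with medians of -0.04 and -0.01 on HFD.

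**Figure D5:**
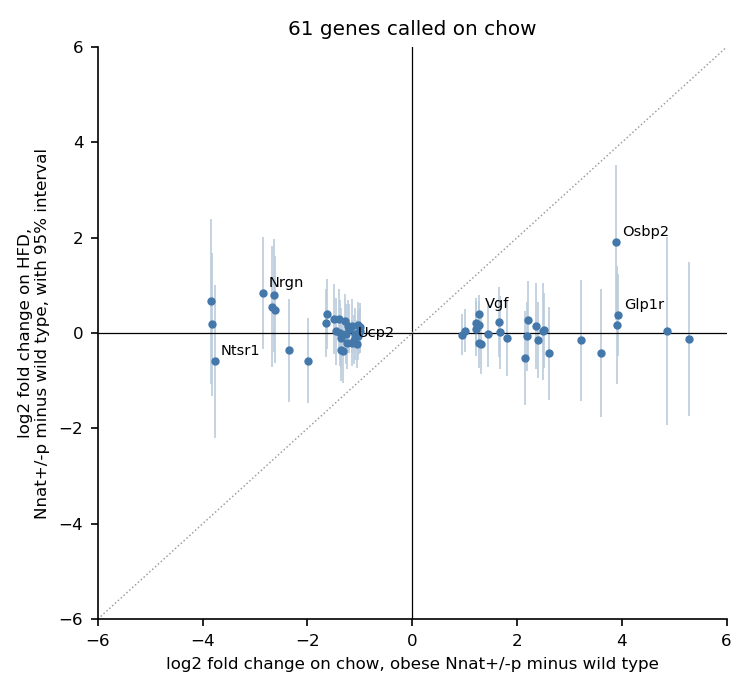
The 61 genes other than Nnat called between obese Nnat+/-p and wild-type males on chow, with their log2 fold change on chow (horizontal axis) and on HFD (vertical axis, with 95% intervals); the dotted line marks equal change. On HFD the intervals include 0 except for Osbp2, whose value there rests on replicate 31, and Vgf.

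Nrgn, which encodes neurogranin, a calmodulin-binding protein of dendrites, had the smallest p of the interaction. On HFD it was at 15, 9.33 and 46.2 CPM in Nnat+/-p and ran from 3.45 to 29.8 CPM in wild type, with overlap and a log2 fold change of 0.84 (95% interval -0.34 to 2.02). On chow the log2 fold changes were -2.86 for obese and -3.28 for non-obese mutants. The difference of effects was 3.91 ± 0.81 (SE; adjusted p = 0.295 in the quasi-likelihood test of edgeR, Benjamini-Hochberg adjusted). It passed the threshold in 3 of 9 alternative settings, namely without replicates 24 and 30, without 23 and 24, and without a filter on low counts. Chow replicate 15 held 252 CPM against 16.8 CPM in the lowest chow wild-type library. Glp1r, chosen after its values were seen, had log2 fold changes of 3.92 and 2.68 on chow, where wild type ran from 0.213 to 2.18 CPM, but was at 3.75 to 14.5 CPM in wild type on HFD. Its difference of effects was -2.92 ± 0.67 (SE; unadjusted p = 0.00015 and adjusted p = 1.0 in the quasi-likelihood test of edgeR, Benjamini-Hochberg adjusted). It passed in 5 of 9 alternative settings: DESeq2, no filter on low counts with and without a robust prior, without replicates 15 and 24, and without 23 and 24. For Ntsr1, Npy, Tbx3 and Ucp2 the differences were 2.94, 2.59, 1.00 and 0.75, all with an adjusted p of 1.0 by the same test. In each of these genes chow replicate 15 held the highest chow wild-type level, at 13.46, 14.92, 31.65 and 92.04 CPM. The study names Npy and Tbx3 for the ARC, whereas these values are from the PVN. For Nnat itself the difference was -0.80 ± 0.46 (SE; unadjusted p = 0.0918, edgeR's test).

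The ARC of HFD-fed males gives the same contrast in another nucleus, from 4 Nnat+/-p and 6 wild-type libraries with 2838121 to 18058097 counts. Most of their labelled weights recur among the PVN mice, so these may be the same animals and are not independent of them. In the ARC edgeR called 2 of 15753 genes (0.0127%), Nnat and Osbp2. Nnat was at 1.05, 3.95, 3.06 and 1.67 CPM in Nnat+/-p and at 278 to 480 CPM in wild type (log2 fold change -7.45). Osbp2 was at 1820 CPM in 1 Nnat+/-p library, replicate 52, and between 6.19 and 18.9 CPM in the other 9. Replicate 52 carries the labelled weight of PVN replicate 31, 38.2 g, which is the PVN library where Osbp2 was high.

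Kdm1a was at 24.6, 33.1, 33.9 and 25.6 CPM in Nnat+/-p and between 31.1 and 43.8 CPM in wild type, with a log2 fold change of -0.33 (95% interval -0.69 to 0.03) beside -0.61 in the PVN. Egr1 was at 5.76, 7.89, 8.52 and 21 CPM against 10.1 to 35.3 CPM, with a log2 fold change of -0.62 (95% interval -1.43 to 0.19) beside -1.52. En2 was at 1.83, 2.37, 0.655 and 2.78 CPM against 0 to 1.72 CPM, with a log2 fold change of 2.12 (unadjusted p = 0.0101; adjusted p = 0.999 in the quasi-likelihood test of edgeR, Benjamini-Hochberg adjusted) beside 2.19. Mbp had a log2 fold change of 0.49 beside 0.54. In these 4 genes the groups overlapped in the ARC and none was called. The sign differed between the nuclei in 5 other genes named above for their p in the PVN. Vgf had a log2 fold change of -0.09 in the ARC beside 0.40 in the PVN, Bhlhe40 0.18 beside -0.48 and Gal 0.14 beside -1.32. For the sparse Gm4869 and Lgals7 it was -4.50 beside 3.59 and -4.37 beside 5.14.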

How the data were processed

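RNA was measured in 9 laser-captured PVN samples of HFD-fed males. The values are read counts per gene as deposited by the authors, whole numbers without normalization, for 53379 Ensembl genes, of which 53274 matched a symbol in GENCODE M21. The submitters' processing notes name STAR 2.5.0a and GRCm38; the counting tool, its annotation release and its strand setting are not given in the sources used here. Groups followed the labels. Replicate 32 and the female table were not used.

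Counts of the 5 male PVN groups (19 libraries) were fitted together in R 4.3.3 with edgeR 4.0.16: filterByExpr with a minimum count of 10, TMM factors, the quasi-likelihood test and Benjamini-Hochberg adjustment, called at an adjusted p under 0.25, after the study's threshold. The ARC (20 libraries, leaving out 1 under 25% of the median total) was fitted likewise. SEs are Wald SEs. The p-values rest on a spread between mice within groups that was estimated over all libraries of a fit, chow mice included. Whether mice of a group came from separate litters is not given, so a spread between litters is not covered. Alternatives used DESeq2 1.42.0 and limma 3.58.1. The scripts were tested on simulated data. Named genes were Nnat, Blcap, the genes the study's text names, the 10 with the smallest p in each direction, list members with an unadjusted p under 0.05, and 6 PVN hormones and markers; others are said to be chosen after their values were seen. The libraries and lists were chosen with earlier results of these data known. Intervals are 95%; the floor of 3 counts covers counting error only.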

Additional observations from a re-analysis of the deposited data

Results flagged for a closer look

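Among 66 sets of 6 wild-type values that were examined for a value far from the rest, 8 held one. Many of the genes examined were named for their p in these same data, so this count cannot be set against chance. Replicate 24 was far above the other wild-type libraries in Gal (91.1 CPM), Gpr50 (41.4 CPM) and En2 (4.87 CPM). Replicate 23 was far above them in Mbp (272 CPM), in the summed astrocyte genes (3021 CPM), in the summed general neuronal genes (4016 CPM) and in Gm14114 (0.127 CPM, from 1 count). Replicate 28 was far above them in Kdm1a (69 CPM), which lies on the far side from the Nnat+/-p libraries; without that replicate the log2 fold change of Kdm1a was -0.52.

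Replicate 32, labelled as Nnat+/-p on HFD but with conflicting nuclei, entered no comparison. Scaled to its own total of 7348988 counts, it held 4.76 CPM of Nnat, 159 CPM of Sim1, 277 CPM of Avp and 0.816 CPM of Agrp. On the same scale the ARC libraries on HFD ran from 0 to 7.59 CPM in Sim1, 0 to 28.1 CPM in Avp and 1.95 to 28 CPM in Agrp. Egr1, Vgf and Mbp, 3 of the 13 genes looked at in replicate 32, lay there above all 6 wild-type PVN libraries on the same scale, at 108, 208 and 269 CPM. The Egr1 value is also above the 13 to 21.7 CPM of the 3 Nnat+/-p libraries on this scale, on the far side of wild type from them.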

How the results depend on the processing

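Nnat was called in all 20 alternative settings, with log2 fold changes from -7.48 to -6.66, and leaving out any 1 library kept the count at 1 gene (1 to 1). Without a filter on low counts edgeR called 8 genes, 1 higher and 7 lower, and 2 list members; with a robust prior it called 1. Without replicates 23 and 24 it called 3 genes, 1 higher (Slc32a1) and 2 lower (Nnat and Egr1), all of them list members. The interaction gave 15 calls by DESeq2, 1 by limma voom, 44 unfiltered, 8 unfiltered with a robust prior, 2 without replicates 24 and 30, 3 without 15 and 24, and 6 without 23 and 24. In the ARC DESeq2 called 1 gene, and leaving out 1 library gave 2 to 4. The share of genes with a larger SD in Nnat+/-p became 41% without replicate 24 and 47.5% without 24 and 28. The robust prior, the pairs 15 and 24 and 23 and 24, the ARC settings and those of the spread were chosen after seeing the data. The cause of these differences was not tested.

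Signs turned for 10 named genes. Slc32a1 was at 0.14 with weight as a covariate, 1.03 by voom, 0.86 without replicates 24 and 30, 0.54 without 15 and 24, and 2.23 without 23 and 24. Avp was at -0.026, -0.14 and -0.36 and Sim1 at -0.31, -0.18 and -0.24 in the last 3 settings, and Oxt was at 0.57 by voom. Leaving out 1 library gave ranges of -0.27 to 0.36 for Avp, -0.66 to 0.56 for Slc32a1, -0.18 to 0.17 for Sim1, -0.64 to 0.23 for Oxt, -0.20 to 0.13 for Trh, -0.56 to 0.051 for Tbx3, -0.081 to 0.25 for Blcap, -0.12 to 1.27 for Nrgn, -0.33 to 1.05 for Npy and -0.61 to 2.43 for Osbp2. Of 782 values over 41 named genes, 746 kept their direction and side of the threshold. No paired analysis was possible because the replicate numbers run through the series and no groups share one. With 3 Nnat+/-p libraries, genes under 4 CPM could not be measured to within 2-fold.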

Other observations

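En2 was followed through all the male libraries, after its values were seen. In the PVN it had 24, 2 and 0 counts in the 3 chow wild-type libraries and 138, 22, 24, 41, 48, 26 and 40 in the 7 chow Nnat+/-p libraries. In the chow ARC it had 8, 1 and 0 counts in wild type, the last from the library left out for its low total, and between 12 and 47 in the 8 Nnat+/-p libraries. Raw counts do not correct for depth, and no test was run over the nuclei and diets together. Whether all of these reads came from the native En2 gene was not tested.

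Gm14114, on the same chromosome as Nnat, had counts in 3 of 7 chow Nnat+/-p PVN libraries (30, 1 and 5) and in 0 of 3 chow wild-type ones, beside 3 of 3 and 1 of 6 on HFD. In the ARC it had 5 counts in 1 chow Nnat+/-p library and 0 in every other.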
